A study of Mus musculus with 12 samples.

Results

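The 8 genes described here encode secreted signals of the chemokine and IL-6 families. They are Ccl2, Ccl7, Cxcl1, Cxcl12, Cxcl14, Cx3cl1, Il6 and Lif, which were taken by symbol from the 17536 genes of the deposited values. All 8 were present. The genes were chosen by measured values, since Ccl2 and Ccl7 were selected on their lower FPKM in R3-cKO than in R3-Cntl SFZ cells. The genotype difference in SFZ cells is therefore given as a description, with no test.

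RNA was collected from chondrocytes of the superficial zone (SFZ) and of the deep zone (DZ) of cartilage of 5-day-old mice. Their strain is C57BL/6 in the labels and C57BL/6J in the study's methods. Each genotype and zone had 3 libraries, 12 in all. R3-Cntl mice were Runx3 fl/fl and R3-cKO mice were Col2a1-Cre; Runx3 fl/fl, so both genotypes carried the floxed Runx3 alleles and differed by a Cre driven in cells that express the cartilage collagen Col2a1. The labels name no treatment. SFZ cells were released from the ends of the femur and tibia by trypsin for 1 h and collagenase for 1.5 h, and DZ cells from what remained by 5 h more of collagenase, and both were grown as a monolayer on fibronectin. Zone and digestion therefore cannot be told apart in any zone comparison. The study's supplement names 3 individual littermate mice per genotype, and nothing in the labels says which library came from which mouse.

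Chemokines are small secreted proteins that bind G protein-coupled receptors and direct the movement of cells. The CC chemokines Ccl2 and Ccl7 act on Ccr2 and draw monocytes, Cxcl1 acts on Cxcr2 and draws neutrophils, and Cxcl12 acts on Cxcr4 and is taken up by Ackr3. Cx3cl1 is made as a membrane-bound protein that the proteases Adam10 and Adam17 can release, and its receptor is Cx3cr1. Il6 and Lif bind Il6ra and Lifr, and both signal through the shared receptor chain Il6st (gp130), the kinase Jak1 and the transcription factor Stat3. In cartilage these signals are known mainly as products of chondrocytes and synovial cells exposed to inflammatory cytokines.

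The values are read as FPKM, the fragments mapped to a gene relative to the length of its transcript and the size of the library, scaled between libraries by the authors. This unit was inferred, since none is written beside the values. On that reading they allow levels to be compared between genes. They are not counts, so the depth of the libraries is unknown and an exact 0 means only that a gene is listed at 0. The libraries summed to 392241 to 429213 FPKM. Runx3 itself, whose value sums all its exons, was 10.73, 5.98 and 6.65 FPKM in the R3-Cntl SFZ libraries against 11.83, 9.07 and 3.42 FPKM in those labelled R3-cKO, and it was not lower in the R3-cKO DZ libraries either. The value did not separate the genotypes and does not check the labels. In both zones the Y-linked transcripts of R3-cKO libraries 2 and 3 did not exceed 0.04 FPKM, against at least 1.05 FPKM in the other 8 libraries, so for those numbers the genotype and this difference cannot be told apart. In bulk RNA, fewer cells of a type and less RNA per cell cannot be told apart.

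In SFZ cells Cxcl12 was the most abundant of the 8, followed by Cxcl14, and Il6 was close to 0 (the plot of the 8 genes by library). Cxcl12 averaged 107 ± 63.9 FPKM (SD, n = 3) in R3-Cntl SFZ cells and 240 ± 317 FPKM in R3-cKO SFZ cells, which placed it above Cxcl14 in every SFZ library. In R3-Cntl SFZ cells Cxcl14, Ccl2, Ccl7 and Cx3cl1 came next with means of 18.4, 13.9, 8.21 and 7.74 FPKM, and the ranges of neighbours in that order overlapped. Cxcl1 and Lif followed at 2.35 and 1.06 FPKM. In R3-Cntl DZ cells Cxcl12 and Cxcl14 did not separate, at means of 10.7 and 10.4 FPKM, and Cx3cl1 was the only other of the 8 with a mean above 1 FPKM there.

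**Figure D1:**
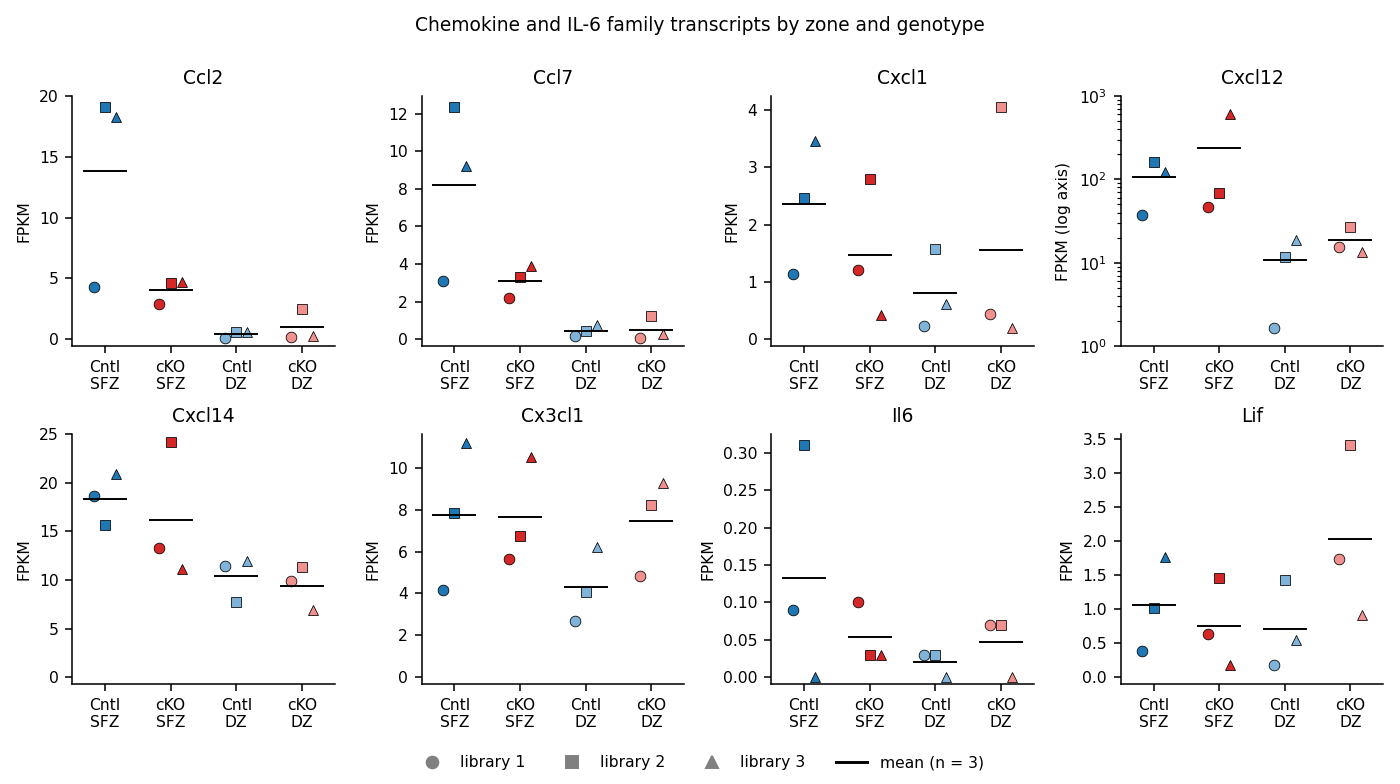
FPKM of the 8 genes in each of the 12 libraries, by group (horizontal) with a log axis for Cxcl12 alone, where symbols mark the library number and horizontal lines the mean of 3 libraries. Ccl2 and Ccl7 lie highest in R3-Cntl SFZ libraries 2 and 3, and all SFZ libraries lie above all DZ libraries for Ccl2, Ccl7 and Cxcl12.

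Ccl2 and Ccl7, the monocyte chemoattractants, had higher values in every SFZ than in every DZ library. The question here was how the zones differ, and it was asked over both genotypes, with 6 SFZ and 6 DZ libraries. Ccl2 was 4.29, 19.08 and 18.28 FPKM in R3-Cntl SFZ libraries 1 to 3 and 2.93, 4.63 and 4.71 FPKM in R3-cKO SFZ libraries. In DZ cells it was 0.14, 0.56 and 0.61 FPKM in R3-Cntl mice and 0.19, 2.53 and 0.23 FPKM in R3-cKO libraries. R3-cKO DZ library 2 was the only DZ library above 1 FPKM, and it still lay below the lowest SFZ library. The mean was 8.99 FPKM in SFZ and 0.710 FPKM in DZ libraries, a 12.7-fold ratio. The difference on the log2(FPKM + 1) scale, which understates changes of low genes, was -2.35 (SE 0.38). No p is given for the zone difference of Ccl2 and Ccl7, since it reuses the SFZ values that chose them and both passed the filter of 1 FPKM in 3 libraries only through SFZ cells.

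Ccl7 followed the same order. It was 3.11, 12.32 and 9.21 FPKM in R3-Cntl SFZ and 2.18, 3.29 and 3.89 FPKM in R3-cKO SFZ libraries. In DZ cells it was 0.16, 0.45 and 0.78 FPKM in R3-Cntl mice and 0.04, 1.21 and 0.28 FPKM in R3-cKO libraries. Again the zones did not overlap, and again R3-cKO DZ library 2 was the highest of the DZ libraries. The means of 5.67 and 0.487 FPKM differed 11.6-fold, and the log2 difference was -2.01 (SE 0.30), again as a description.

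The ratio of the zones within each genotype is given as a description, and the difference of the zone effects was not tested because it rests on the SFZ values that chose these genes. Ccl2 was 31.8-fold higher in SFZ than in DZ cells of R3-Cntl mice and 4.16-fold higher in those of R3-cKO mice. For Ccl7 the ratios were 17.7 and 6.12. Both R3-cKO ratios turned on R3-cKO DZ library 2, without which they were 19.5 for Ccl2 and 19.5 for Ccl7, the latter above the R3-Cntl ratio. Without R3-Cntl DZ library 3 the R3-Cntl ratio of Ccl7 was 26.9. The zones did not overlap within either genotype for either gene.

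Ccl2 and Ccl7 are neighbours on chromosome 11. In the mouse build NCBIM37 (mm9) Ccl2 (gene ID 20296) spans chr11:81849073-81850955 and Ccl7 (gene ID 20306) spans chr11:81859214-81861027, both on the plus strand, with 8258 bp and 0 coding genes between them. Across the 12 libraries their log2(FPKM + 1) values had a Pearson r of 0.99, and r was 0.96 once the group means were subtracted. It was 0.99 within the 6 SFZ and 0.91 within the 6 DZ libraries. The points share their libraries and the scaling, and r is given as a description. Ccl7 was the gene most like Ccl2 of all genes that passed the filter, before Slc1a6 and Rasa2 (both 0.96). The next for Ccl7 were Slc1a6 (0.97) and Spry4 (0.96). Ccl2 exceeded Ccl7 in every SFZ library, by a factor of 1.21 to 1.98 (the plot of Ccl2 against Ccl7).

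**Figure D2:**
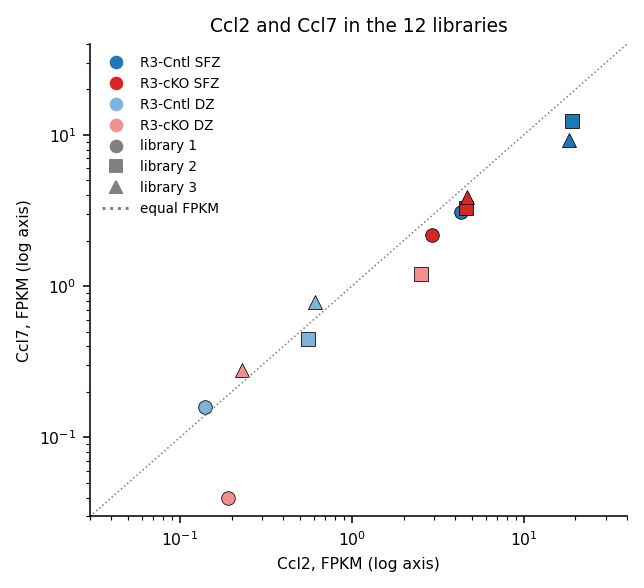
Ccl7 (vertical) against Ccl2 (horizontal) in the 12 libraries, both in FPKM on log axes, with colours for groups, symbols for library numbers and a dotted line at equal values. R3-Cntl SFZ libraries 2 and 3 stand at the top, R3-Cntl SFZ library 1 stands among the R3-cKO SFZ libraries, and the DZ libraries lie below.

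Between genotypes in SFZ cells, the values that chose the genes were as follows. R3-cKO libraries had a mean of 4.09 ± 1.01 FPKM of Ccl2 against 13.9 ± 8.32 FPKM in R3-Cntl libraries (SD, n = 3 each), which is 3.39-fold lower. R3-Cntl libraries 2 and 3 stood far above the rest, and R3-Cntl library 1 was as low as the R3-cKO libraries, so the groups overlapped. Libraries of the same number differed 1.46-, 4.12- and 3.88-fold for Ccl2 and 1.43-, 3.74- and 2.37-fold for Ccl7, always with the lower value in R3-cKO, a direction that 6.01% of all genes in the fit kept in every number. The smallest of these ratios belongs to number 1, the only one in which both libraries held Y-linked transcripts. On the log2(FPKM + 1) scale the differences were -1.34 (SE 0.54) for Ccl2 and -1.02 (SE 0.45) for Ccl7. Of the 11537 genes in that fit, 0.685% were over 2-fold lower and 0.00867% over 2-fold higher. Among the 8, Ccl7 lies just past 2-fold and Cxcl1, at -0.49 (SE 0.43), is the nearest that does not. The 4 osteoblast markers also summed lower in R3-cKO SFZ libraries, with no overlap. Their sums were 32.8, 26.4 and 27.8 FPKM there against 47.3, 125 and 52.2 FPKM in R3-Cntl SFZ libraries. In DZ cells they were 16.6 to 51.1 FPKM in R3-cKO and 51.8 to 153 FPKM in R3-Cntl libraries, also with no overlap. Most of the highest sums came from Ibsp, at 100.07 FPKM in R3-Cntl SFZ library 2 and 137.32 FPKM in R3-Cntl DZ library 3. Taken singly, Ibsp overlapped between genotypes in both zones and Bglap in SFZ cells, Sp7 overlapped in neither zone, and Dmp1 stayed under 1 FPKM. The study itself lists Ibsp among the genes lower in R3-cKO SFZ cells. The 5 skeletal muscle markers summed to 69.6 FPKM in R3-Cntl SFZ library 2, the library with the most Ccl2, and to 3.98 to 11.9 FPKM in the other SFZ libraries. The part of these cells in the genotype difference was not tested.

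No such difference was seen in DZ cells, where Ccl2 and Ccl7 were near or under 1 FPKM and did not pass the filter over the 6 DZ libraries. R3-cKO means were 0.983 ± 1.34 FPKM for Ccl2 and 0.510 ± 0.618 FPKM for Ccl7, and R3-Cntl means 0.437 ± 0.258 and 0.463 ± 0.310 FPKM. Exact two-sided permutation tests gave p = 0.80 for Ccl2 and p = 1 for Ccl7, where 3 against 3 libraries cannot go below 0.1. R3-cKO DZ library 2 made the higher R3-cKO mean of Ccl2, since the other 2 R3-cKO DZ libraries were at 0.19 and 0.23 FPKM.

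Cxcl12, the ligand of Cxcr4 that retains stem and immune cells in marrow, was also far higher in SFZ cells. It was 36.97, 162.21 and 121.21 FPKM in R3-Cntl SFZ libraries 1 to 3 and 47.02, 67.89 and 605.84 FPKM in R3-cKO SFZ libraries. In DZ cells it was 1.65, 11.73 and 18.82 FPKM in R3-Cntl mice and 15.34, 26.90 and 13.65 FPKM in R3-cKO libraries. R3-cKO SFZ library 3 stood apart at the top and R3-Cntl DZ library 1 at the bottom, and the zones did not overlap. The zone means of 174 and 14.7 FPKM differed 11.8-fold, with a log2 difference of -3.06 (SE 0.71). limma with Benjamini-Hochberg adjustment over 11765 genes gave an adjusted p of 0.0149, and the exact permutation p, two-sided as throughout, was 0.00216, the smallest that 6 against 6 libraries allow. Without R3-cKO SFZ library 3 the log2 difference was -2.50. The SFZ to DZ ratio was 9.95 in R3-Cntl and 12.9 in R3-cKO mice, but 16.0 in R3-Cntl without R3-Cntl DZ library 3 and 3.08 in R3-cKO without R3-cKO SFZ library 3, which turns the order of the genotypes. Cxcl12 (gene ID 20315) lies at chr6:117118553-117131385 on the plus strand of NCBIM37, and the genes whose log2 values ran most like it over 12 libraries were Zswim6 and Eda (both r = 0.99) and B4galt1 (0.98).

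Between genotypes Cxcl12 turned on 1 library. In SFZ cells the log2 difference of R3-cKO from R3-Cntl was 0.47 (SE 1.06) with all libraries and -0.66 without R3-cKO SFZ library 3. In DZ cells it was 1.11 (SE 0.73), higher in 2 of 3 numbers, and 0.25 without R3-Cntl DZ library 1 (all libraries: exact permutation p = 0.40, limma adjusted p = 0.999).

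Cxcl14, a chemokine expressed in many epithelia and mesenchymal tissues, was moderately higher in SFZ cells. It was 18.61, 15.66 and 20.90 FPKM in R3-Cntl SFZ and 13.31, 24.18 and 11.12 FPKM in R3-cKO SFZ libraries, against 11.48, 7.74 and 11.91 FPKM in R3-Cntl DZ and 9.86, 11.38 and 6.93 FPKM in R3-cKO DZ libraries. R3-cKO SFZ library 3 fell within the range of the DZ libraries, so the zones overlapped, but the DZ library was the lower of each of the 6 same-numbered pairs, which held for 27.4% of all genes. The means of 17.3 and 9.88 FPKM differed 1.75-fold, with a log2 difference of -0.73 (SE 0.19, limma adjusted p = 0.0256; exact permutation p = 0.00866). The call was lost with quantile normalization (-0.56, adjusted p = 0.0654) and with size factors (-0.58, adjusted p = 0.0720), which shift the median of all genes from -0.14 to 0.04 and 0.00318, and it was lost on leaving out library 3 of R3-Cntl SFZ, library 2 of R3-Cntl DZ or library 3 of R3-cKO DZ (adjusted p up to 0.0573). Between genotypes Cxcl14 differed by -0.24 (SE 0.29) in SFZ and by -0.13 (SE 0.23) in DZ cells on the log2 scale (DZ: exact permutation p = 0.50). It lies on chromosome 13 at chr13:56390008-56397912 on the minus strand (NCBIM37, gene ID 57266). The genes most like it were Sh3kbp1 (r = 0.90), Parvb and Spice1 (both 0.89) over 12 libraries.

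Cx3cl1, the membrane-bound chemokine, differed little between zones. It was 4.15, 7.86 and 11.20 FPKM in R3-Cntl SFZ, 5.64, 6.75 and 10.52 FPKM in R3-cKO SFZ, 2.70, 4.06 and 6.23 FPKM in R3-Cntl DZ and 4.81, 8.25 and 9.29 FPKM in R3-cKO DZ libraries. The ranges of all 4 groups overlapped. The zone difference was -0.36 on the log2 scale (SE 0.26, limma adjusted p = 0.348; exact permutation p = 0.255). In DZ cells the R3-cKO mean was 1.72-fold the R3-Cntl mean, with the R3-cKO library higher in 3 of 3 numbers, and the log2 difference was 0.68 (SE 0.31, limma adjusted p = 0.999; exact permutation p = 0.20). In SFZ cells the difference was 0.03 (SE 0.36). The gene (ID 20312) lies at chr8:97295909-97306323 on the plus strand of NCBIM37. Trabd2b (r = 0.94), Tprg (0.93) and Me3 (0.92) were most like it over 12 libraries.

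Cxcl1, Il6 and Lif were low throughout. Their promoters, with that of Cxcl12 for comparison, are shown because the genes are known targets of inflammatory signalling and because 3 of these sequences hold letters that match motifs of factors such signals use. The sequences are the 250 bases before the RefSeq transcription start, 5′ to 3′ on the gene's strand, from RefSeq's GRCm38.p6, a later build than that of the deposited values. Capitals mark matches, on either strand, to an NF-kB motif (GGGA, any base and TTTCC, or GGGAA and TTCCC), to an AP-1 motif (TGANTCA) or to a Runx motif (TGTGGT or TGCGGT). Promoters were found for 6 of the 8 genes, all but Ccl2 and Ccl7.
Cxcl1, chr5:90890995-90891244, plus strand: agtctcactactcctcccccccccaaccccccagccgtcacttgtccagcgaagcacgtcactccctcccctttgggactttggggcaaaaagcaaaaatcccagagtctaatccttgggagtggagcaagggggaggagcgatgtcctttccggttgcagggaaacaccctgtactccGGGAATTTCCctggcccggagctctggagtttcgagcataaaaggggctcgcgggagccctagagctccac
Il6, chr5:30012864-30013113, plus strand: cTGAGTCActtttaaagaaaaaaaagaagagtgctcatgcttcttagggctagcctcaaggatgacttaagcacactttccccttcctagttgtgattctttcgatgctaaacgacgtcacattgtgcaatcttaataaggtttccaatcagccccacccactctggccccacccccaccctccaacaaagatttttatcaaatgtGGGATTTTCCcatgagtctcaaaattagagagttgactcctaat
Lif, chr11:4257318-4257567, plus strand: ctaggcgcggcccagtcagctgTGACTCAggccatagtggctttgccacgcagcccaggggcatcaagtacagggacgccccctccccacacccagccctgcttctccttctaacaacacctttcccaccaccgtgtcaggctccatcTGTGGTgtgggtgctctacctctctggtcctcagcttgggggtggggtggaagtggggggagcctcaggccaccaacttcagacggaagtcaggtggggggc
Cxcl12, chr6:117168285-117168534, plus strand: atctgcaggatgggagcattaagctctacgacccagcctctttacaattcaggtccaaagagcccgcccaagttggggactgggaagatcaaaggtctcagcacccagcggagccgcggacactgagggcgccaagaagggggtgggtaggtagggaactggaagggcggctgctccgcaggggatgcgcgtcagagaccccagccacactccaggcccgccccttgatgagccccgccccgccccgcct
The NF-kB letters begin 71 bases before the start of Cxcl1 and 44 bases before that of Il6. The AP-1 letters begin 249 bases before the start of Il6 and 228 before that of Lif, and a Runx match begins 102 bases before the start of Lif. The promoters of Cxcl12, Cxcl14 and Cx3cl1 held none of the 3 motifs. The search covered the bases before the start and a further 50 after it, which are not printed. Of 32851 RefSeq promoters of the same length, 0.451% held the NF-kB, 7.81% the AP-1 and 22.4% the Runx letters. A match describes the letters and is not a measured site.

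Cxcl1, the neutrophil chemoattractant, was 1.14, 2.47 and 3.45 FPKM in R3-Cntl SFZ and 1.20, 2.80 and 0.43 FPKM in R3-cKO SFZ libraries. In DZ cells it was 0.23, 1.58 and 0.62 FPKM in R3-Cntl mice and 0.44, 4.05 and 0.19 FPKM in R3-cKO libraries. The highest of all 12 was R3-cKO DZ library 2, the DZ library with the most Ccl2 and Ccl7, and the zones overlapped. The zone difference was -0.53 on the log2 scale (SE 0.40). Cxcl1 passed the filter through SFZ cells, so no limma p is given, and the exact permutation test, which needs no filter, gave p = 0.227. Its locus is chr5:91320267-91322141 on the plus strand of NCBIM37 (gene ID 14825). Baz1a, Vav2 and Smarca5 were most like it (r = 0.96 each, 12 libraries).

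Lif, the leukemia inhibitory factor, was 0.38, 1.02 and 1.77 FPKM in R3-Cntl SFZ and 0.63, 1.46 and 0.18 FPKM in R3-cKO SFZ libraries. In DZ cells it was 0.18, 1.42 and 0.54 FPKM in R3-Cntl mice and 1.74, 3.41 and 0.92 FPKM in R3-cKO libraries. Over both genotypes it was the only one of the fitted genes with a higher mean in DZ cells, and the zones overlapped (log2 difference 0.25, SE 0.28, limma adjusted p = 0.566; exact permutation p = 0.491). The genotypes went opposite ways. The mean was 1.06 FPKM in SFZ and 0.713 FPKM in DZ cells of R3-Cntl mice, and 0.757 and 2.02 FPKM in those of R3-cKO mice. In DZ cells the R3-cKO library was the higher in 3 of 3 numbers, with means of 2.02 and 0.713 FPKM and a log2 difference of 0.80 (SE 0.38, limma adjusted p = 0.999; exact permutation p = 0.20). Lif and Cxcl1 ran together within groups, with an r of 0.95 over 12 libraries after the group means had been removed. The genes most like Lif over all were Card10 (r = 0.98), Fam241a (0.97) and Tes (0.96). Lif (gene ID 16878) lies at chr11:4157560-4172517 on the plus strand of NCBIM37.

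Il6, the founding cytokine of its family, was listed between 0 and 0.31 FPKM. It was 0.09, 0.31 and 0 FPKM in R3-Cntl SFZ, 0.10, 0.03 and 0.03 FPKM in R3-cKO SFZ, 0.03, 0.03 and 0 FPKM in R3-Cntl DZ and 0.07, 0.07 and 0 FPKM in R3-cKO DZ libraries. It reached 1 FPKM in no library and entered no fit, and no fold is given. The gene (ID 16193) lies at chr5:30339701-30346508 on the plus strand of NCBIM37.

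Of the 8 genes, Cxcl12 and Cxcl14 were lower in DZ cells past the adjusted threshold and Cx3cl1 and Lif were not past it, while Ccl2, Ccl7 and Cxcl1 are given without this test and Il6 was not fitted (the plot of zone and genotype differences). Among all 11765 genes 16.8% were lower and 3.82% higher in DZ cells at that threshold, a split of 1974 to 450 that became 781 to 1086 with quantile normalization and 968 to 934 with size factors. Ccl2, Ccl7 and Cxcl12 kept their direction under both, and Cxcl12 its call. Cxcl12 was also over 2-fold lower, which 4.27% of all genes were, and its zones did not overlap, which held for 9.71% of all genes in this direction. In the genotype comparison of DZ cells Cxcl12, Cxcl14, Cx3cl1 and Lif passed the filter, and none was past the threshold. limma called 0 of 11091 genes there (0%), while 2.5% were higher and 1.15% lower at an unadjusted p under 0.05. The R3-cKO library was the higher in 3 of 3 numbers for 26.6% of all genes, as it was for Cx3cl1 and Lif. With the replicate number as a block, which these DZ libraries carry, the SE fell to 0.11 for Cx3cl1 (adjusted p = 0.147) and 0.20 for Lif (adjusted p = 0.205), and the unadjusted count rose from 404 to 1830 genes.

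**Figure D3:**
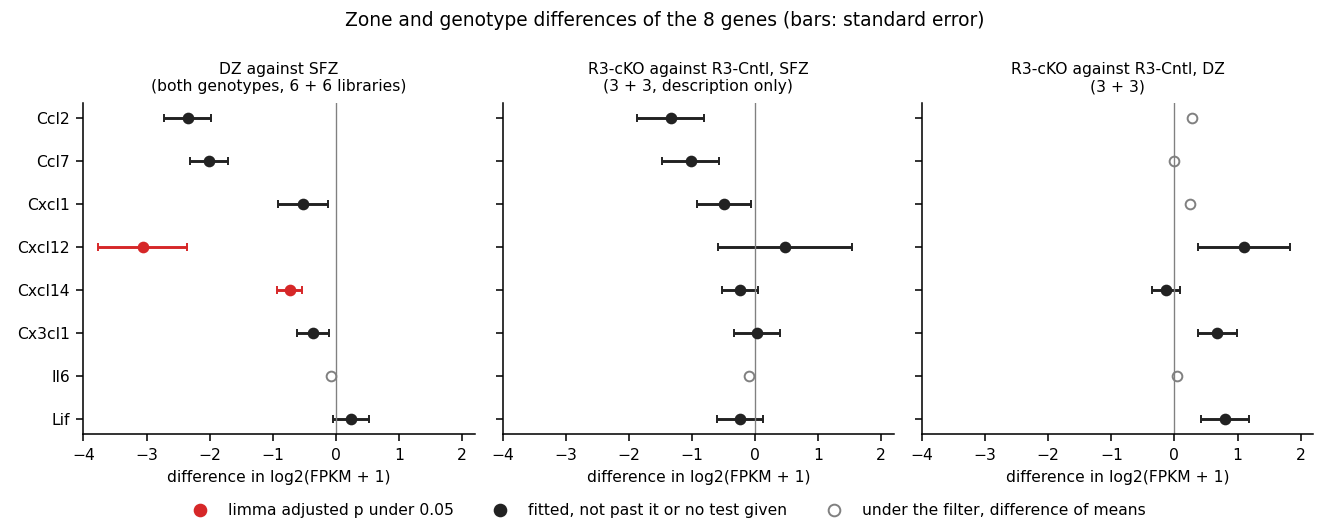
Differences in log2(FPKM + 1) of the 8 genes (horizontal) between zones, between genotypes in SFZ cells and between genotypes in DZ cells, with standard errors as bars, and open circles for genes under the filter. Cxcl12 and Cxcl14 lie left of 0 in the zone panel with an adjusted p under 0.05, Ccl2 and Ccl7 lie left of 0 there with no test given, and only Ccl2 and Ccl7 lie beyond -1 in the SFZ genotype panel, which shows the values that chose them.

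Markers of other cells moved with the zone. The summed level of 13 macrophage markers was 189, 160 and 8.15 FPKM in R3-Cntl SFZ libraries 1 to 3, 159, 16.3 and 75.3 FPKM in R3-cKO SFZ libraries and 3.93 to 25.9 FPKM in DZ libraries, where 7 markers in R3-Cntl and 11 in R3-cKO, 1 of them listed at 0, stayed under 1 FPKM in every library. R3-Cntl SFZ library 3 had 18.28 FPKM of Ccl2 with a macrophage sum within the DZ range. In R3-Cntl SFZ library 2, 19.08 FPKM of Ccl2 stood beside a sum of 160 FPKM. R3-Cntl SFZ library 1 had the highest sum and the lowest Ccl2 of its group. A fit without the 4 SFZ libraries whose sum exceeded the highest DZ sum, chosen after seeing the data, gave -2.73 for Ccl2, -2.20 for Ccl7, -2.84 for Cxcl12 (limma adjusted p = 0.131) and -1.13 for Cxcl14 (0.0916), and called 37 genes from the 2 SFZ libraries that were left. The 10 fibroblast markers summed to 3988 to 11472 FPKM in SFZ and 533 to 2952 FPKM in DZ libraries, and the library with the highest sum, R3-cKO SFZ library 3, also had the highest Cxcl12. Most of that sum came from the collagens Col1a1, Col1a2 and Col3a1. Of the other fibroblast markers Thy1 was 11.9 to 45.2 FPKM in SFZ and 0.41 to 3.61 FPKM in DZ libraries. Postn was 57.3 to 333 and 0.63 to 6.69 FPKM and Cd34 12.55 to 27.89 and 0.06 to 1.09 FPKM, all without overlap. Pdgfra (13.5 to 30.3 and 0.95 to 18.5 FPKM) and Pdpn (3.89 to 14.2 and 2.14 to 8.18 FPKM) overlapped. Dcn and Lum did not follow the zone in this way. Dcn was 56.5 to 275 FPKM in SFZ and 207 to 549 FPKM in DZ libraries and Lum 62.0 to 285 and 73.4 to 250.5 FPKM. The 28 immediate early and stress genes summed to 442 to 1030 FPKM in SFZ and 494 to 1061 FPKM in DZ libraries (the plot of marker sums). Cyr61, at a mean of 270.2 FPKM over all libraries, was the largest part of these sums. The median zone difference of the 25 tested genes of this list was -0.45 on the log2 scale, against -0.14 for all genes. These medians were -0.19 against 0.04 with quantile normalization and -0.31 against 0.00318 with size factors. The 8 endothelial markers summed to 0.61 to 6.27 FPKM in SFZ and 0.15 to 0.47 FPKM in DZ libraries, low levels that did not overlap. The 6 neutrophil markers found summed to 10.9, 4.02 and 0.65 FPKM in R3-Cntl SFZ, 1.5, 0.38 and 0 FPKM in R3-cKO SFZ and 0.05 to 0.94 FPKM in DZ libraries, so they were lower in R3-cKO than in R3-Cntl SFZ libraries of each number. The part of these cells in the zone and genotype differences was not tested. The 10 chondrocyte markers were present in every group, with sums of 5242 to 15474 FPKM in SFZ and 16199 to 36072 FPKM in DZ libraries.

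**Figure D4:**
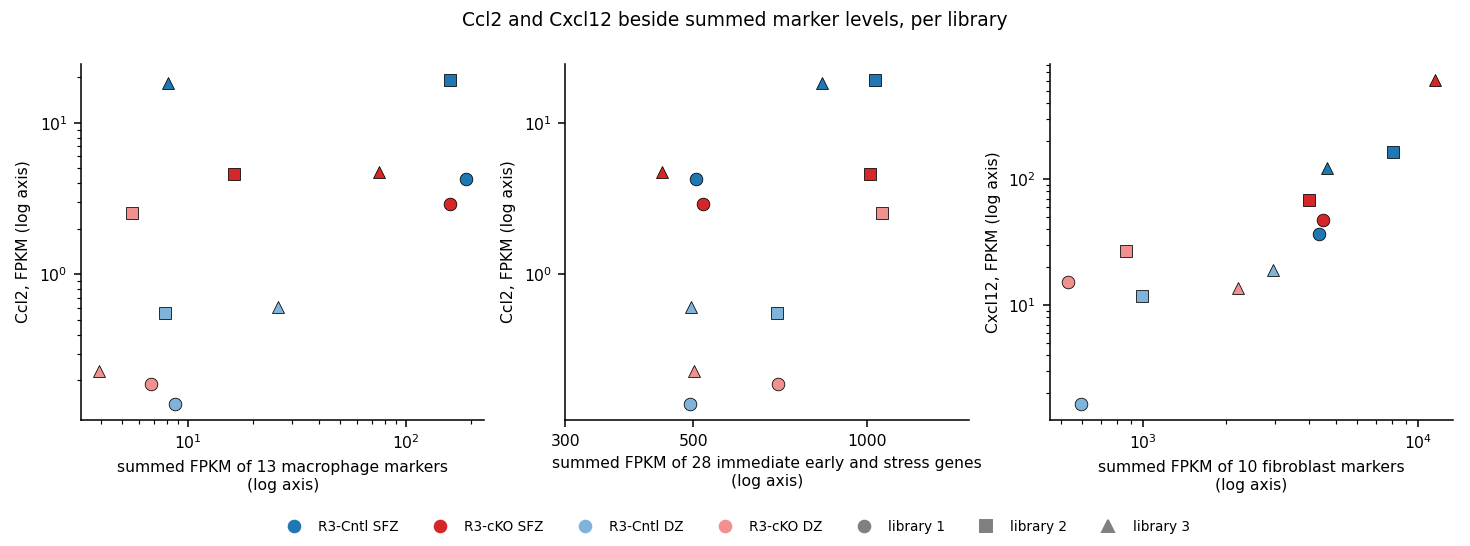
Ccl2 against the summed macrophage markers and against the summed immediate early and stress genes, and Cxcl12 against the summed fibroblast markers, in FPKM on log axes, one point per library. R3-Cntl SFZ libraries 2 and 3 combine 19.08 and 18.28 FPKM of Ccl2 with macrophage sums of 160 and 8.15 FPKM. R3-cKO SFZ library 3 is highest on both axes of the fibroblast panel.

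Of the receptors for these ligands, Ackr3 and the shared chain Il6st were well expressed and Ccr2, Cxcr4 and Cx3cr1 were not (the plot of receptors). Those 3, Il6ra and Lifr are named as partners of the ligands and Osmr as another receptor of the IL-6 family. All were named outside the rule for named genes and with their values known. Ackr3, the scavenging receptor of Cxcl12, averaged 14.8 and 12.8 FPKM in R3-Cntl and R3-cKO SFZ cells and 14.0 and 19.5 FPKM in R3-Cntl and R3-cKO DZ cells (zone log2 difference 0.32, SE 0.28, limma adjusted p = 0.447). Cxcr4 ranged from 0.14 to 1.13 FPKM, Cx3cr1 from 0.04 to 0.80 FPKM, and Ccr2 did not exceed 0.11 FPKM. Cxcr2 averaged 1.43 FPKM over all libraries. Of 22 listed receptors in the deposited values, 18 stayed under 1 FPKM in every library and 3 were tested. Ackr4, a scavenger of homeostatic CC chemokines, averaged 1.72 and 2.17 FPKM in R3-Cntl and R3-cKO SFZ cells and 0.210 and 0.147 FPKM in DZ cells, with no overlap between zones. It entered the fit only through SFZ cells, and no p is given.

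**Figure D5:**
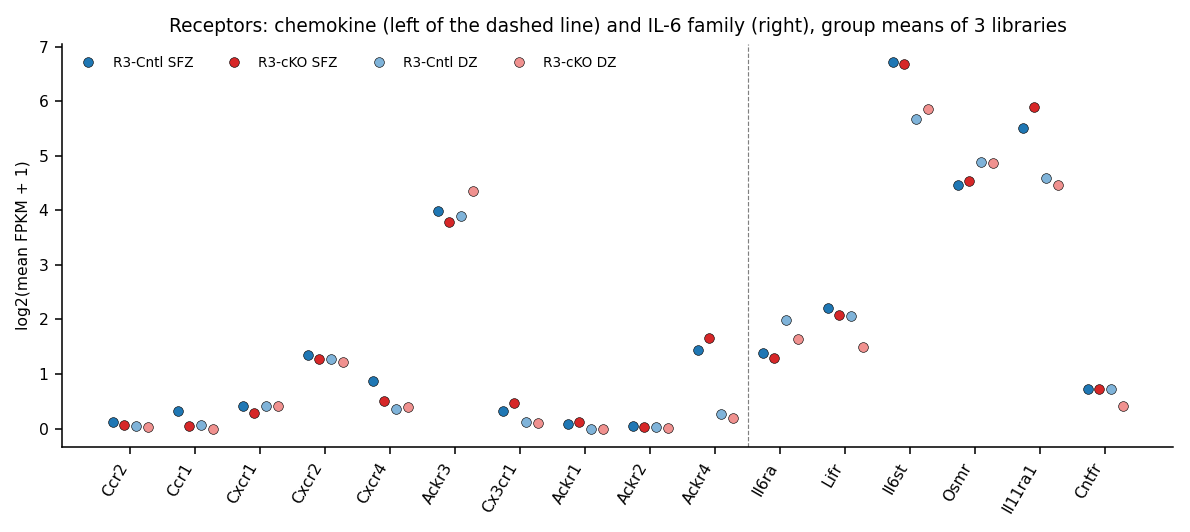
Group means of receptor transcripts as log2(mean FPKM + 1), with chemokine receptors left of the dashed line and IL-6 family receptors right of it, and colours for the 4 groups of 3 libraries. Ackr3 is the highest of the chemokine receptors shown in every group, and Il6st lies lower in both DZ groups than in both SFZ groups.

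Among the listed receptors and signalling genes of the IL-6 family, the shared chain Il6st was lower in DZ cells under each scaling. It was 104 ± 19.6 and 102 ± 13.6 FPKM in R3-Cntl and R3-cKO SFZ cells and 50.0 ± 18.6 and 57.4 ± 15.7 FPKM in R3-Cntl and R3-cKO DZ cells (SD, n = 3), with no overlap between zones and a log2 difference of -0.97 (SE 0.21, limma adjusted p = 0.0117). Of the 15 tested genes of this list 5 were lower and 0 higher in DZ cells, where 16.8% of all genes were lower and 3.82% higher. Besides Il6st they included Il11ra1, a receptor of interleukin 11 (-1.09), Jak1 (-0.70) and Pias3 (-0.18). The count was 2 lower and 2 higher with quantile normalization and 1 lower and 2 higher with size factors, the higher ones being Osmr and Jak2 in both, the latter named after its value was seen. Lifr (-0.33, adjusted p = 0.252), Il6ra (0.48, 0.176), Osmr (0.39, 0.0688) and Stat3 (-0.17, 0.317) did not pass by limma without further scaling. Between genotypes in DZ cells 0 of the 15 passed the adjusted threshold.

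The other ligands of both families were mostly silent. Of 28 other chemokine ligands in the deposited values, 17 stayed under 1 FPKM in every library. Of the 28, 7 were tested. The neutrophil chemoattractant Cxcl5 had means of 5.49 and 3.6 FPKM in R3-Cntl and R3-cKO SFZ cells and 0.600 and 1.23 FPKM in DZ cells. It entered the fit through SFZ cells, and no p is given. Ccl27a and Ccl9 averaged 5.46 and 2.71 FPKM over all libraries and did not pass. Of the other IL-6 family ligands 4 were tested and 0 passed by limma, where 16.8% of all genes were lower and 3.82% higher in DZ cells. Clcf1 differed by -0.40 between zones (SE 0.16, limma adjusted p = 0.105). Clcf1 averaged 7.42 and Ctf1 5.49 FPKM over all libraries.

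Of 27 tested NF-kB factors and inflammatory targets, a list of regulators and products of inflammatory signalling, 3 were lower and 1 higher in DZ cells by limma, beside 16.8% and 3.82% of all genes. Vcam1, an adhesion molecule with a log2 difference of -1.96, passed the filter only through SFZ cells. It is among the 27 but is not counted among the 3 lower ones, while the 16.8% of all genes leaves out no such gene. The count and that share were therefore made by unlike rules. The lower ones were the interleukin 1 receptor antagonist Il1rn (-2.18), the receptor Il1r1 (-0.63) and the NF-kB regulator Ikbkg (-0.38), and the higher one was the NF-kB cofactor Bcl3 (0.94). With quantile normalization or size factors 1 was lower, Il1rn, and 3 were higher. The most abundant of the list, Tnfrsf1a (54.9 FPKM), Cebpb (39.9 FPKM) and Rela (22.6 FPKM), did not pass. Of 25 tested immediate early and stress genes, Klf4 (-0.78) was lower in DZ cells by limma, with 1 lower and 0 higher under quantile normalization and 0 lower and 1 higher, Jund (0.50, limma adjusted p = 0.0279), under size factors. Egr2, also among the 25, passed the filter only through SFZ cells. It differed by -0.70, is not counted as lower, and no p is given. The matricellular gene Cyr61, at a mean of 270.2 FPKM, and Jund, at 52.7 FPKM, did not pass by limma without further scaling. Adam17, a sheddase of Cx3cl1, was lower in DZ cells (-0.38, limma adjusted p = 0.0192), but not with quantile normalization (adjusted p = 0.117) or size factors (0.12), and Adam10 did not pass (-0.69, adjusted p = 0.0541). In DZ cells 5 of 25 NF-kB genes were higher in R3-cKO at an unadjusted p under 0.05, against 2.5% of all genes, and 0 passed after adjustment.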

How the data were processed

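Chondrocytes of 2 zones and 2 genotypes were profiled in 12 libraries, grouped by the labels. The authors sequenced 100-bp paired-end reads and mapped them to mm9, and the submitters' processing notes name Bowtie 0.12.2. The deposited values behave as FPKM scaled by the trimmed mean of M values. This unit was inferred, since none is written beside them. With no depth given, only the spread between libraries measures error. All columns were mapped to a library.

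Values were analysed as log2(FPKM + 1) with limma 3.58.1 in R 4.3.3 (empirical Bayes with a trend, Benjamini-Hochberg adjustment over all genes at 1 FPKM or more in 3 or more libraries of the fit), which was tested on simulated data. The zone effect was averaged over genotypes in 12 libraries, with no limma p printed for genes named here that passed the filter only through SFZ cells. The genotype effect in DZ used 6 libraries. Exact tests permuted all 924 or 20 relabellings. Summaries used Python 3.11.15, pandas 2.3.3 and NumPy 2.4.6. The 8 genes, the gene lists and the tests were chosen with earlier results of these data known. Genes named from a list passed the adjusted threshold (at most the 4 largest per direction, to which Pias3 was added after its value was seen) or were among its 3 most abundant. For each of the 8, genes of the highest Pearson r were sought. The alternatives were other filters, pseudocounts, scalings, a replicate block, single genotypes, ratios of means and single libraries left out. In DZ cells libraries of the same number correlated at 0.65, 0.78 and 0.69 over 11359 genes after group means were removed, so the numbers pair there. A few listed genes are not reported here.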

Additional observations from a re-analysis of the deposited data

How the results depend on the processing

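Depth and counting error are unknown, and each group has 3 libraries. The direction of the zone effect for Ccl2, Ccl7, Cxcl12 and Cxcl14 was kept under every alternative run. The count of 2424 genes with a zone effect was 1008 with a mean of at least 10 FPKM, 3965 with genotype and number as a replicate block, 140 within R3-Cntl, 2 within R3-cKO, 37 without the SFZ libraries high in macrophage markers (an alternative chosen after seeing the data) and 1245 to 2796 with a library left out, lowest without R3-Cntl SFZ library 2. The block used numbers that did not pair the zones in every case: the same-number correlations between zones were 0.58, 0.11 and -0.15 in R3-Cntl and 0.42, 0.78 and 0.65 in R3-cKO. Within R3-Cntl the zone effect was -2.51 for Ccl7, -3.38 for Cxcl12 (limma adjusted p = 0.0813) and -0.78 for Cxcl14 (0.0766). Within R3-cKO it was -1.54 for Ccl2, -1.5 for Ccl7, -2.74 for Cxcl12 (0.284) and -0.68 for Cxcl14 (0.395). Without the libraries high in macrophage markers it was -2.73, -2.20, -2.84 and -1.13 for Ccl2, Ccl7, Cxcl12 and Cxcl14. The log2 ratio of means was -3.66 for Ccl2 and -3.54 for Ccl7. Cxcl14 was -0.56 with quantile normalization, -0.58 with size factors and -0.84 to -0.57 with a library left out. Over all alternatives the adjusted p ran from 0.00616 to 0.284 for Cxcl12 and 0.00263 to 0.395 for Cxcl14. The causes were not tested.

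In DZ cells, 1 gene passed between genotypes with no filter. The 404 genes at an unadjusted p under 0.05 became 779 with no filter, 184 above a mean of 10 FPKM, 1830 with the number as a replicate block and 211 to 773 with a library left out, lowest without R3-cKO DZ library 2 and highest without R3-cKO DZ library 3. Lif was 1.5 as a log2 ratio of means. In SFZ cells, where the same-number correlations were 0.79, -0.09 and -0.42, 80 genes differed over 2-fold. There were 51 above a mean of 10 FPKM, 168 and 10 with pseudocounts of 0.1 and 5, 272 with R3-cKO library 1 and the R3-Cntl libraries alone, and 20 to 333 with a library left out, lowest without R3-cKO SFZ library 3 and highest without R3-cKO SFZ library 2. Leaving out a library gave -1.97 to -1.01 for Ccl2 and -1.52 to -0.68 for Ccl7, smallest without R3-Cntl SFZ library 2, as a description.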
